A study of Mus musculus with 17 samples.

Results

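The 10 genes described here encode sensors of DNA and RNA in the cytosol and the proteins that pass on, restrain or edit what those sensors detect. They are *Cgas*, *Sting1*, *Zbp1*, *Ifih1*, *Dhx58*, *Mavs*, *Tbk1*, *Trex1*, *Samhd1* and *Adar*. They were chosen by name for their function, out of 56748 genes in the count table, and 9 of the 10 had enough counts to be among the 16195 genes that were tested. *Trex1* was the exception, with a count of 0 in every library.

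Expression was measured by RNA sequencing of polyadenylated RNA from heart tissue of mice aged 12 to 16 months, with 9 hearts labelled hMut and 8 labelled control (Ctrl). No treatment was given to either group, and each library is named by its group and the number in its label. The hMut mice carry *Polg* iMut/iMut with +/Ckmm-cre on a C57BL/6N background, so that cre removes a wild-type *Polg* cassette and the proofreading-deficient form of the mitochondrial DNA polymerase is made instead. The study asked what mitochondrial DNA (mtDNA) mutations do when they arise in the heart rather than in the whole body. The alleles carried by the control mice, the sex of each mouse and its exact age within the range are not given in the sources used here. Ckmm-cre is driven by the promoter of the muscle creatine kinase gene, which is active in heart muscle and also in skeletal muscle, and the immune cells, fibroblasts and endothelial cells of the tissue are outside its intended range. The labels do not state in words that each library came from a separate mouse, and if any did not, the p-values would describe only the spread between libraries.

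Cytosolic nucleic acid sensing runs along a DNA arm and an RNA arm. In the DNA arm cGAS binds double-stranded DNA and makes cyclic GMP-AMP, which activates STING on the endoplasmic reticulum. In the RNA arm helicases such as MDA5 bind double-stranded RNA and activate MAVS on the mitochondrial outer membrane, and both arms use the kinase TBK1 to switch on interferon genes. DNA and double-stranded RNA that leave mitochondria are known ligands of these sensors, and several of the sensor genes are themselves induced by interferon.

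Total counts ranged from 34425783 to 46486964 in Ctrl and from 32915159 to 40175122 in hMut, and mtDNA-encoded genes took 23.5% to 30.9% of the counts in Ctrl and 15.9% to 23.0% in hMut. *Polg*, the targeted gene, was at 57.9 ± 6.08 CPM (read counts scaled to the TMM-adjusted library size, SD, n = 9) in hMut and 34.7 ± 7.31 (n = 8) in Ctrl, and 8 of the 9 hMut hearts lay above every Ctrl heart (log2 fold change 0.74, SE 0.10, edgeR quasi-likelihood adjusted p = 0.000448). Gene counts do not show the base change itself. The cardiomyocyte markers were high in all 17 libraries, summing to 30470 CPM or more. hMut replicates 6 and 9 stood apart from the rest in immune genes. The fold changes and correlations of the sensor genes are given with and without them, and other genes with them unless stated. In bulk tissue, fewer cells of a type and less RNA per cell cannot be told apart.

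The interferon-stimulated response element (ISRE) and the interferon-gamma activated sequence (GAS) are the DNA motifs through which interferon signalling reaches its target genes, so the promoters of the sensor genes were searched for them. The windows were those of RefSeq on GRCm38.p6, from 250 bases before to 50 bases after each transcription start, and each was matched to a single place in GRCm39, whose coordinates are given. Of the 10 genes, *Cgas*, *Ifih1*, *Mavs*, *Tbk1*, *Trex1*, *Samhd1* and *Adar* had windows, with 3 for *Adar* and 2 for *Trex1*. No window was searched for *Zbp1*, *Dhx58* or *Sting1*, so nothing is said here about motifs in their promoters. The ISRE core searched was GAAANNGAA, whose reverse complement is TTCNNTTTC, and the GAS motif was TTCNNNGAA, which is its own reverse complement. Among 32851 windows, 2812 (8.56%) held the ISRE core and 2726 (8.30%) held the GAS motif. The ISRE core was found in the windows of *Ifih1* and *Adar*, and the stretches that hold it are shown because these genes were among those with high counts in hMut replicate 6. A stretch of *Samhd1* with the GAS motif is shown beside them. They are written 5′ to 3′ on the strand of the gene, with the motif in capitals, and bases after the start are counted from 1 at the start itself.
Ifih1, 112 bases before the start, chr2:62476692-62476721, minus strand: agaattcgcgTTCCCTTTCctgtttctcac
Ifih1, 33 bases after the start, chr2:62476550-62476579, minus strand: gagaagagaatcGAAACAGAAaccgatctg
Adar, 34 bases after the start, chr3:89638045-89638074, plus strand: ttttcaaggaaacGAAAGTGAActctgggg
Samhd1, 235 bases before the start, chr2:156977232-156977261, minus strand: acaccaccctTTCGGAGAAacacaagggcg

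The *Samhd1* stretch holds the GAS motif and not the ISRE core. The start used for it, at 156977016, is near that of the transcript Samhd1-204 and lies inside the gene, whose upstream end is at 156977185. The stretch is therefore closer to that end than the 235 bases given. The *Ifih1* core 33 bases after the start fell in an exon of 6 annotated transcripts and in no coding sequence, and the *Adar* core 34 bases after the start fell in an exon of 4 annotated transcripts and in no coding sequence. The *Adar* window also held an ISRE core 249 bases before its start and a GAS motif 23 bases after it, which does not overlap the core shown. This was the most downstream of the 3 *Adar* windows, near the start of the transcript Adar-201, and the other windows of *Adar* held neither motif. The windows of *Cgas*, *Mavs*, *Tbk1* and *Trex1* held neither motif. A match is a string of letters only, and binding was not measured.

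Comparing hMut with Ctrl, none of the 9 tested sensor genes passed an adjusted p of 0.05. The edgeR quasi-likelihood test called 0 of 9, against 749 of all 16195 genes (4.62%), of which 564 rose (3.48%) and 185 fell (1.14%). The same test had 1 of the 9 at an unadjusted p under 0.05, *Zbp1*, beside 4178 of all genes. DESeq2 and limma-voom also called 0 of 9, and each had 0 of 9 at an unadjusted p under 0.05. The fitted log2 fold change was above 0 for 8 of the 9, all but *Mavs*, and the median over the 9 was 0.27, beside 0.00 over all genes. The groups overlapped for all 9 genes, and over all genes 98 (0.605%) did not overlap. For the 8 genes with a log2 fold change above 0 the hMut median was between 0.905 and 1.03 of the Ctrl median, and the highest value was that of hMut replicate 6.

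**Figure D1:**
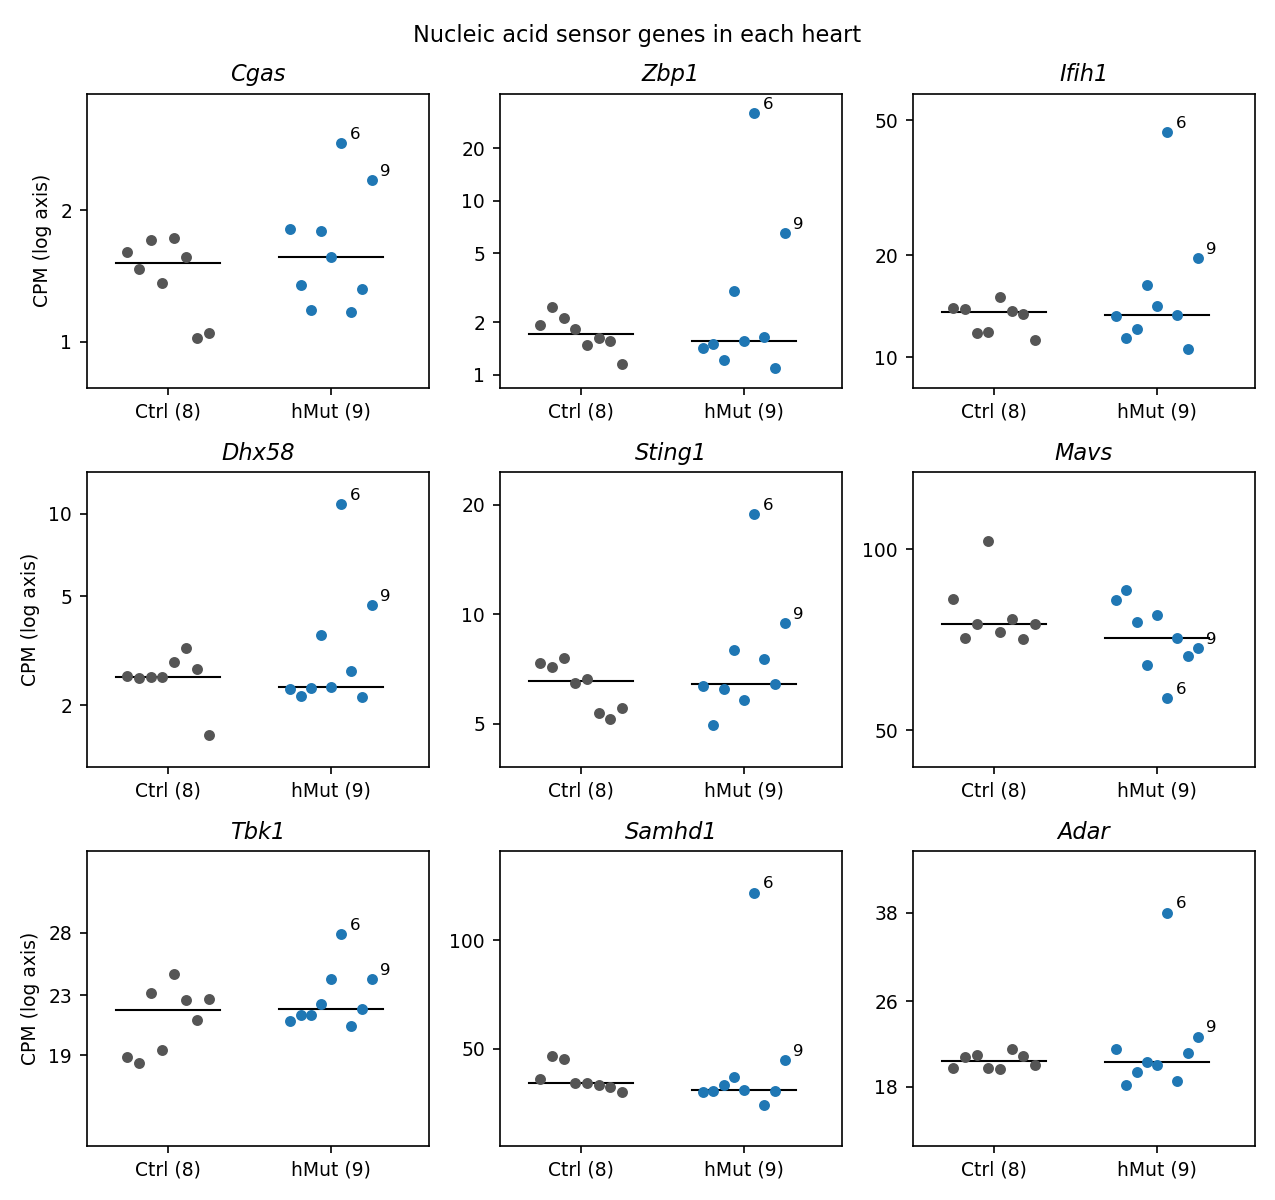
CPM of the 9 tested sensor genes in each heart, on log axes whose range differs between panels. Each point is a heart, horizontal lines are group medians, and hMut replicates 6 and 9 are numbered. The medians of Ctrl and hMut lie close together in every panel, and hMut replicate 6 is the highest of all 17 hearts for every gene but *Mavs*, for which it is the lowest.

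*Cgas* (ENSMUSG00000032344, minus strand of chromosome 9 from 78337808 to 78350519) encodes the DNA sensor that makes cyclic GMP-AMP. Its CPM in the Ctrl hearts had a lowest value of 1.02, a median of 1.51 and a highest value of 1.72. In the hMut hearts the lowest was 1.17, the median 1.56 and the highest 2.84. hMut replicates 1, 4, 6 and 9 lay above every Ctrl heart, at 1.81, 1.79, 2.84 and 2.34 CPM, and the other hMut hearts lay inside the Ctrl range. The log2 fold change was 0.25 (SE 0.19, edgeR adjusted p = 0.390). *Cgas* had few reads, 41 to 120 counts per library, so the small gap between replicates 1 and 4 and the highest Ctrl heart is within counting error.

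*Sting1* (ENSMUSG00000024349) encodes the adaptor that cyclic GMP-AMP activates. In Ctrl its CPM ran from 5.15 through a median of 6.55 to 7.58. In hMut it ran from 4.95 through a median of 6.42 to 18.9. Replicates 4, 6 and 9, at 7.97, 18.9 and 9.47 CPM, lay above every Ctrl heart, and replicate 2 lay below every Ctrl heart. For *Sting1*, hMut and Ctrl differed by a log2 fold change of 0.36 (SE 0.21, edgeR adjusted p = 0.294).

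*Zbp1* (ENSMUSG00000027514, minus strand of chromosome 2 from 173048405 to 173060716) encodes a sensor of Z-form nucleic acids that can start necroptosis, and it had the largest fitted difference of the set. Its Ctrl values had a lowest of 1.16, a median of 1.73 and a highest of 2.46 CPM. Its hMut values had a lowest of 1.10, a median of 1.56 and a highest of 31.7 CPM. hMut replicate 6 stood 17.9-fold above the Ctrl mean, replicate 9, at 6.49 CPM, 3.66-fold above it, and replicate 4, at 3.03 CPM, 1.71-fold above it. The other 6 hMut hearts lay at or under 1.66 CPM, under the Ctrl median, and replicate 8 lay below every Ctrl heart. The log2 fold change was 1.65 (SE 0.65, edgeR adjusted p = 0.130), and the coefficient of variation was 180% in hMut and 22.8% in Ctrl. Without hMut replicate 6 the log2 fold change was 0.36 (adjusted p = 0.541). DESeq2, which replaced counts of *Zbp1* that it took as outliers, gave 0.31 (adjusted p = 0.538).

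*Ifih1* (ENSMUSG00000026896, minus strand of chromosome 2 from 62426142 to 62476599) encodes MDA5, the helicase that senses long double-stranded RNA. Its Ctrl hearts held 11.3, 13.6 and 15.1 CPM as lowest, median and highest. Its hMut hearts held 10.6, 13.3 and 46.1 CPM in the same order. hMut replicate 6 was 3.51-fold, replicate 9 was 1.49-fold and replicate 4 was 1.25-fold of the Ctrl mean, and all 3 lay above every Ctrl heart. The other 6 hMut hearts spread around the Ctrl median, 1 of them below every Ctrl heart. hMut against Ctrl had a log2 fold change of 0.41 (SE 0.24, edgeR adjusted p = 0.280).

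*Dhx58* (ENSMUSG00000017830, minus strand of chromosome 11 from 100585710 to 100595097) encodes LGP2, a helicase of the same family that tunes MDA5 signalling. Its lowest, median and highest Ctrl values were 1.56, 2.55 and 3.24 CPM. Those of hMut were 2.14, 2.33 and 10.9 CPM. Replicates 6, 9 and 4 again lay above every Ctrl heart, at 10.9, 4.64 and 3.63 CPM, and the lowest heart of all was Ctrl replicate 8. For *Dhx58* the fitted log2 fold change was 0.52 (SE 0.30, edgeR adjusted p = 0.276). An opposite-strand gene, Dhx58os, shares 141 of the 3373 exonic bases of *Dhx58* (4.18%) in GENCODE vM39, and whether the counting used the strand is not given in the sources used here.

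*Mavs* (ENSMUSG00000037523, plus strand of chromosome 2 from 131075983 to 131089945) encodes the mitochondrial adaptor of the RNA helicases and was the only gene of the set with a log2 fold change below 0. Its Ctrl values were 71.0, 75.1 and 103 CPM as lowest, median and highest, and its hMut values 56.6, 71.1 and 85.7 CPM. Replicates 4, 6, 8 and 9, at 64.2, 56.6, 66.4 and 68.5 CPM, lay below every Ctrl heart, and none lay above. Replicates 6, 9 and 4 were the hearts with the highest *Zbp1*, while replicate 8 had the lowest *Zbp1* of all 17 hearts. Between the groups the log2 fold change was -0.12 (SE 0.08, edgeR adjusted p = 0.355).

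*Tbk1* (ENSMUSG00000020115, minus strand of chromosome 10 from 121382360 to 121422692), the kinase shared by the DNA and RNA arms, had the log2 fold change closest to 0. Its Ctrl hearts ran from 18.6 through a median of 21.9 to 24.6 CPM and its hMut hearts from 20.8 through 22.0 to 27.9 CPM. Replicate 6 alone was above every Ctrl heart. Its log2 fold change was 0.10 (SE 0.07, edgeR adjusted p = 0.375).

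*Samhd1* (ENSMUSG00000027639, minus strand of chromosome 2 from 156939453 to 156977185) encodes an enzyme that degrades deoxynucleotides and limits nucleic acid build-up. In Ctrl the lowest, median and highest values were 38.0, 40.1 and 47.8 CPM, and in hMut 34.9, 38.4 and 135 CPM. As for *Tbk1*, and unlike *Cgas*, *Sting1*, *Zbp1*, *Ifih1* and *Dhx58*, only hMut replicate 6 was above every Ctrl heart. It was at 3.26-fold of the Ctrl mean. Replicate 9, at 46.4 CPM, was below Ctrl replicates 2 and 3, and replicates 1 and 7 were below every Ctrl heart. For *Samhd1* the log2 fold change was 0.27 (SE 0.23, edgeR adjusted p = 0.463), and without hMut replicate 6 it was -0.076 (adjusted p = 0.470).

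*Adar* (ENSMUSG00000027951, plus strand of chromosome 3 from 89622329 to 89660753) encodes the enzyme that edits adenosine to inosine in double-stranded RNA and so keeps the cell's own RNA from being sensed by MDA5. It was the steadiest of the set in Ctrl, from 19.4 through a median of 20.1 to 21.2 CPM, a coefficient of variation of 3.23%. In hMut it ran from 18.2 through 20.0 to 38.0 CPM. Replicate 6 was 1.89-fold of the Ctrl mean, replicates 1 and 9, at 21.2 and 22.3 CPM, were just above the highest Ctrl heart, and replicates 2, 3 and 7 were below the lowest. Its log2 fold change was 0.13 (SE 0.12, edgeR adjusted p = 0.488), and without hMut replicate 6 it was -0.0084 (adjusted p = 0.936). Counts per gene cannot separate the interferon-inducible long form of ADAR from the constitutive short form, and 1365 of the 8130 exonic bases of *Adar* (16.8%) overlap Chrnb2 on the opposite strand.

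*Trex1* (ENSMUSG00000049734, minus strand of chromosome 9 from 108887001 to 108888802) encodes the exonuclease that clears DNA from the cytosol. It had 0 counts in all 17 libraries, which allows up to 3 counts in any of them by counting error alone. All 1147 of its exonic bases (100%) lie within exons of *Atrip* on the same strand in GENCODE vM39, and reads that fall there cannot be told apart by gene. *Atrip*, a partner of the DNA damage kinase ATR, had 423 to 635 counts per library, with 14.2 ± 1.36 CPM in hMut (n = 9) and 15.03 ± 1.12 in Ctrl (n = 8). The log2 fold change of *Atrip* was -0.09 (SE 0.06, edgeR adjusted p = 0.385). These counts therefore give no level for *Trex1*.

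**Figure D2:**
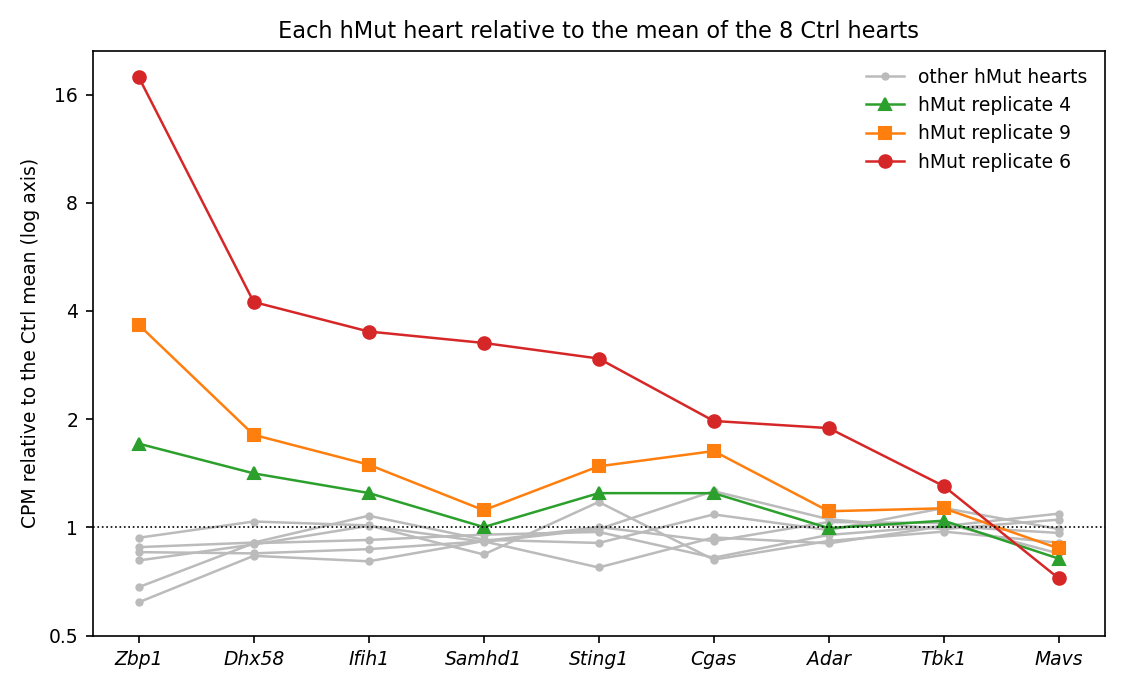
CPM of each tested sensor gene in each hMut heart divided by the mean of the 8 Ctrl hearts, on a log axis, with genes ordered by their ratio in hMut replicate 6. Each line joins the values of 1 heart. hMut replicate 6 falls from 17.9 at *Zbp1* to 0.722 at *Mavs*, replicate 9 from 3.66 to 0.874, and the 6 grey hearts stay between 0.619 and 1.26.

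Read heart by heart, the sensor genes were high together in hMut replicates 6 and 9 and, with smaller ratios, in replicate 4. In replicate 6, 8 of the 9 tested genes lay above every Ctrl heart, beside 31.1% of all tested genes in that heart. In replicate 9 the number was 6 of 9, beside 27.9%, and the 3 that were not above were *Samhd1*, *Tbk1* and *Mavs*. In replicate 4 it was 5 of 9, beside 14.7%, and these were *Cgas*, *Zbp1*, *Ifih1*, *Dhx58* and *Sting1*, each of which was also above every Ctrl heart in replicates 6 and 9. In replicate 1 it was 2 of 9 (*Cgas* and *Adar*), beside 11.0%. None of the 9 genes was above every Ctrl heart in replicates 2, 3, 5, 7 and 8, where 10.9%, 13.7%, 16.0%, 17.7% and 15.6% of all genes were.

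The ratios also differed in shape between replicates 6 and 9. For *Cgas* they were close, 1.98 and 1.63 of the Ctrl mean, while for *Samhd1* they were 3.26 and 1.12 and for *Adar* 1.89 and 1.11. *Zbp1* had the highest ratio in all 3 hearts, and *Dhx58* had the second highest. With 1 library per heart these ratios have no replicate error of their own, and they are given as a description.

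**Figure D3:**
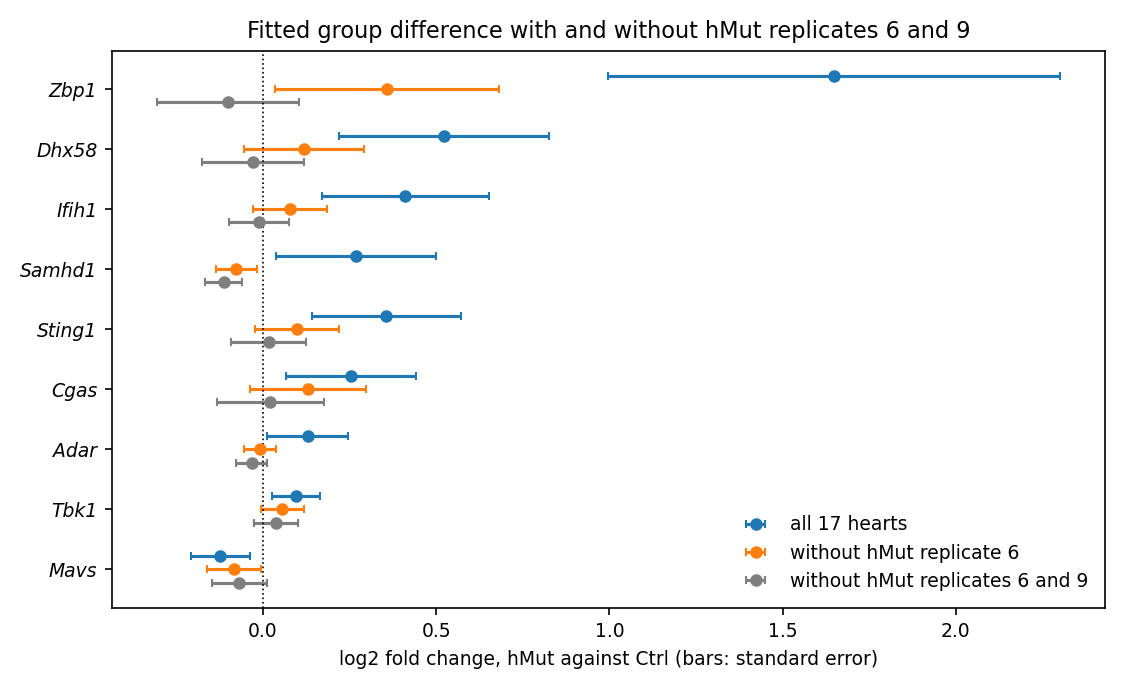
Log2 fold change of hMut against Ctrl from the edgeR fit for each tested sensor gene, with bars of 1 standard error, in all 17 hearts, without hMut replicate 6 and without hMut replicates 6 and 9. *Zbp1* moves from 1.65 to 0.36 and then to -0.10, and no gene passes the threshold in any of the 3 fits.

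Without hMut replicates 6 and 9, a choice made with their high interferon genes already known, the log2 fold changes of the sensors were 0.02 for *Cgas*, 0.02 for *Sting1*, -0.10 for *Zbp1*, -0.010 for *Ifih1* and -0.029 for *Dhx58*. Those of the other genes were -0.07 for *Mavs*, 0.04 for *Tbk1*, -0.11 for *Samhd1* and -0.033 for *Adar*. The smallest adjusted p among the 9 was then 0.263, for *Samhd1*, and a log2 fold change above 0 was left for *Cgas*, *Sting1* and *Tbk1*. In the 7 hearts that remained, the highest *Zbp1* value was 3.03 CPM and the highest *Ifih1* value 16.4 CPM, both in replicate 4.

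To set the genes beside each other, CPM was divided by the gene length in the count table, giving a level per kilobase of gene (FPKM). In Ctrl, *Mavs* had the highest level at 23.4 ± 3.18 FPKM (SD, n = 8), followed by *Tbk1* at 5.47 ± 0.572 and *Samhd1* at 4.54 ± 0.398. *Adar* at 2.48 ± 0.0802, *Sting1* at 2.34 ± 0.348 and *Ifih1* at 1.61 ± 0.164 lay in the middle. The 3 lowest were *Dhx58* at 0.784 ± 0.146, *Zbp1* at 0.502 ± 0.115 and *Cgas* at 0.348 ± 0.0671. The neighbouring pairs *Tbk1* and *Samhd1*, *Adar* and *Sting1*, and *Zbp1* and *Cgas* overlapped within 1 SD of their means. *Mavs* and *Tbk1*, which act downstream, were at higher mean levels per length than the sensors *Cgas*, *Ifih1*, *Dhx58* and *Zbp1*.

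In hMut replicate 6 the order was another. *Mavs* was still the highest at 16.9 FPKM, but *Samhd1* at 14.8 and *Zbp1* at 8.99 FPKM came next, ahead of *Tbk1* at 7.13 and *Sting1* at 6.89. *Ifih1* was at 5.65, *Adar* at 4.69 and *Dhx58* at 3.32, and *Cgas* was again the lowest at 0.689 FPKM. In replicate 9 *Zbp1* reached 1.84 FPKM, under *Ifih1* at 2.41 and above *Dhx58* at 1.42.

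Markers of immune cells moved with the same hearts. The summed level of 13 myeloid markers was 245 to 374 CPM in Ctrl and 311 to 406 CPM in 7 hMut hearts, but 1321 CPM in replicate 6 and 663 CPM in replicate 9, which is 4.05-fold and 2.03-fold of the Ctrl mean. All 13 markers were above every Ctrl heart in both, beside 31.1% of all tested genes in replicate 6 and 27.9% in replicate 9. Among them were *Lyz2*, *C1qa* and *Adgre1*, and no marker was at 0 in every heart. Replicate 4, where 5 sensor genes were above every Ctrl heart, had a myeloid sum of 335 CPM, inside the Ctrl range. Lymphoid markers (11 listed) summed to 3.18 to 51.4 CPM in Ctrl, 71.6 CPM in replicate 6, 12.3 CPM in replicate 9 and 12.6 CPM in replicate 4. The T cell marker *Cd8a* alone was at 25.9 CPM in replicate 6, against at most 2.25 CPM in Ctrl and 1.49 CPM in replicate 9. In Ctrl replicate 3, with the highest lymphoid sum of the Ctrl hearts, *Samhd1* was at 46.7 CPM and *Zbp1* at 2.12 CPM.

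The summed cardiomyocyte markers were lower in hMut, with a median of 39609 CPM against 46283 CPM in Ctrl. They were 39336 to 47415 CPM in Ctrl and 38718 to 45947 CPM in the 7 hMut hearts other than replicates 6 and 9. Replicates 6 and 9 were lower still, at 32522 and 30470 CPM. Cardiomyocyte markers (9 listed) were at 0.718-fold and fibroblast markers (5 listed) at 1.61-fold of the Ctrl mean in replicate 6, and at 0.672-fold and 1.35-fold in replicate 9. Within the cardiomyocyte list, 7 of the 9 markers were below every Ctrl heart in replicate 6, beside 28.8% of all tested genes in that heart. *Nppa*, a natriuretic peptide gene of the same list, was higher instead, at 685 CPM in replicate 6 and 423 CPM in replicate 9 against at most 164 CPM in Ctrl. High *Nppa* was not limited to these hearts, since its hMut median, 217 CPM, was also above the highest Ctrl heart. Replicate 4, at 96.6 CPM, was inside the Ctrl range. *Ttn*, at 1496 CPM in replicate 9, was inside the Ctrl range. Endothelial markers (4 listed) were at 1.03-fold and 1.23-fold, and 1 of the 4 passed the test between the groups. The part of these differences in cell markers in the sensor values was not tested.

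Interferon-stimulated genes, which signalling from these sensors induces, were followed with a list of 28. All 28 were above every Ctrl heart in hMut replicate 6 and all 28 in replicate 9, beside 31.1% and 27.9% of all tested genes. In replicate 4 it was 14, beside 14.7%. In each of the other 6 hMut hearts it was between 0 and 4, beside 10.9% to 17.7%. Between the groups 0 of the 28 passed the edgeR test, beside 749 of all 16195 genes (4.62%). An unadjusted p under 0.05 was found for 12 of the 28, beside 4178 of all genes. The median log2 fold change of the 28 was 0.64. DESeq2 called 1 of them, *Oas3*, and limma-voom called 0. *Irf7*, the transcription factor that amplifies interferon production, was at 10.9 to 17.6 CPM in Ctrl, at 220 CPM in replicate 6 and at 70.8 CPM in replicate 9 (log2 fold change 1.72, SE 0.55, edgeR adjusted p = 0.0727). *Oas3*, which makes the messenger that activates RNase L, was at 12.0 CPM in replicate 6 and 3.07 CPM in replicate 9 against at most 1.44 CPM in Ctrl (log2 fold change 1.82, SE 0.62, edgeR adjusted p = 0.0882). Without replicates 6 and 9 the log2 fold change was 0.34 for *Irf7* (edgeR adjusted p = 0.249) and 0.48 for *Oas3* (edgeR adjusted p = 0.465).

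The other genes of nucleic acid sensing were followed with 7 more lists, so that 144 genes were listed and 139 tested in all. Over the 8 lists 1 gene was higher in hMut and 0 were lower, beside 3.48% and 1.14% of all tested genes, and the median log2 fold change was 0.08. The counts at an unadjusted p under 0.05 given for the lists stand beside 4178 of all 16195 genes. The gene that rose was *Traf2*, a ubiquitin ligase and adaptor that acts below MAVS and several other receptors. It was at 15.2 to 19.3 CPM in Ctrl and 17.4 to 22.8 CPM in hMut, with 7 of 9 hMut hearts above every Ctrl heart (log2 fold change 0.23, SE 0.06, edgeR adjusted p = 0.0426). Unlike the sensor genes, *Traf2* kept most of its difference without replicates 6 and 9, with a log2 fold change of 0.20, but its adjusted p was then 0.103. Its list, of 21 kinases, adaptors and transcription factors downstream, had 4 genes at an unadjusted p under 0.05 and a median log2 fold change of 0.08. DESeq2 and limma-voom called *Traf2* as well, and limma-voom also called *Traf3* higher.

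Among the 20 other DNA sensing genes and genes that handle cyclic GMP-AMP, 0 passed, 3 had an unadjusted p under 0.05, and the median was 0.08. The smallest p belonged to the helicase gene *Dhx36*, at 42.6 to 47.8 CPM in Ctrl with 8 of 9 hMut hearts below every Ctrl heart (log2 fold change -0.13, SE 0.04, edgeR adjusted p = 0.0595). *Hnrnpa2b1*, an RNA-binding protein also described as a nuclear DNA sensor, came next (log2 fold change -0.20, SE 0.06, edgeR adjusted p = 0.0708). DESeq2 and limma-voom called both of these lower, and limma-voom also called *Aim2* lower. *Aim2*, the DNA sensor of an inflammasome, was at 2.17 to 3.04 CPM in Ctrl, below every Ctrl heart in 7 of 9 hMut hearts, and above every Ctrl heart in replicates 6 and 9, at 6.49 and 3.85 CPM. With all hearts its log2 fold change was -0.046 (SE 0.28, edgeR adjusted p = 0.932). Without replicates 6 and 9 it was -0.58 (edgeR adjusted p = 0.0168), and *Aim2* was then the only gene of the 8 lists to pass. Those hearts were left out with their high interferon genes known, and they held the highest *Aim2* values. The lower value that remains was thus partly set by that choice, and the p-value does not account for it.

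Among the 16 other RNA sensing genes and cofactors, which include RIG-I under its older symbol *Ddx58*, 0 passed, 3 had an unadjusted p under 0.05 and the median was 0.09. *Pcbp1*, a cofactor that has been tied to both cGAS and MAVS, had 7 of 9 hMut hearts above every Ctrl heart (log2 fold change 0.11, SE 0.04, edgeR adjusted p = 0.0849, called by DESeq2). *Dhx33* had a log2 fold change of 0.13 (SE 0.06, edgeR adjusted p = 0.177). Among the 19 genes of STING trafficking and regulation 0 passed, 3 had an unadjusted p under 0.05 and the median was -0.03. limma-voom called *Iffo1* lower. *Nlrc3*, an inhibitor of STING trafficking, reached 20.1 and 19.4 CPM in replicates 6 and 9 against at most 9.01 CPM in Ctrl (log2 fold change 0.83, SE 0.34, edgeR adjusted p = 0.145).

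Of 19 other nucleases and editing genes 17 were tested, 0 passed, 2 had an unadjusted p under 0.05 and the median was 0.03. These were *Adarb1*, the paralogue of *Adar* (log2 fold change 0.17, SE 0.06, edgeR adjusted p = 0.105), and *Lsm11*, a histone pre-mRNA processing factor (log2 fold change 0.22, SE 0.08, edgeR adjusted p = 0.106). limma-voom called both higher, while DESeq2 called neither and called *Dnase1l3* lower. For *Dnase1l3*, a secreted DNase, the edgeR fit went the other way with all hearts (log2 fold change 1.70, SE 1.06, adjusted p = 0.308), with 22.3 CPM in replicate 6 against an hMut median of 0.193 CPM. Without replicates 6 and 9 its edgeR log2 fold change was -1.73 (adjusted p = 0.104). Of 13 genes for the release of mitochondrial nucleic acids and for mitochondrial RNA decay 0 passed, 3 had an unadjusted p under 0.05 and the median was -0.09. *Bax*, which forms pores in the mitochondrial outer membrane, was above every Ctrl heart in 8 of 9 hMut hearts and below every Ctrl heart in the remaining heart (log2 fold change 0.39, SE 0.11, edgeR adjusted p = 0.0516, called by DESeq2 and limma-voom). *Ppif*, the cyclophilin of the permeability transition pore, had a log2 fold change of -0.16 (SE 0.07, edgeR adjusted p = 0.171).

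The last list held 8 genes that share Z-nucleic acid or double-stranded RNA binding with *Zbp1* and *Adar*, of which 5 were tested. None passed, 0 had an unadjusted p under 0.05 with edgeR, 0 were called by DESeq2 or limma-voom, and the median was 0.01. *Ilf2* had a log2 fold change of -0.07 (SE 0.05, edgeR adjusted p = 0.375).

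Across the 17 hearts the sensor genes other than *Mavs* were all highest in replicate 6, but the genes that were low differed between hearts. Below every Ctrl heart were *Sting1* and *Adar* in replicate 2, *Samhd1* and *Adar* in replicate 7, and *Zbp1* and *Ifih1* in replicate 8. For the 28 pairs of tested genes without *Mavs*, Pearson's r of log2 CPM had a median of 0.86 and ran from 0.50 to 0.96. By ranks (Spearman's rho) the same pairs ran from 0.04 to 0.82. For the 8 pairs with *Mavs* Pearson's r ran from -0.62 to -0.39. These points share libraries and include hMut replicates 6 and 9, and over the 15 hearts without them the median of the 28 pairs was 0.34 and its range -0.31 to 0.74. *Dhx58* and *Ifih1* were the closest pair there, at 0.74. *Zbp1* stayed at 0.51 to 0.66 with *Dhx58*, *Ifih1*, *Samhd1*, *Sting1* and *Cgas*, *Adar* was between -0.25 and 0.37 with the other genes, and *Tbk1* between -0.34 and 0.16.

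**Figure D4:**
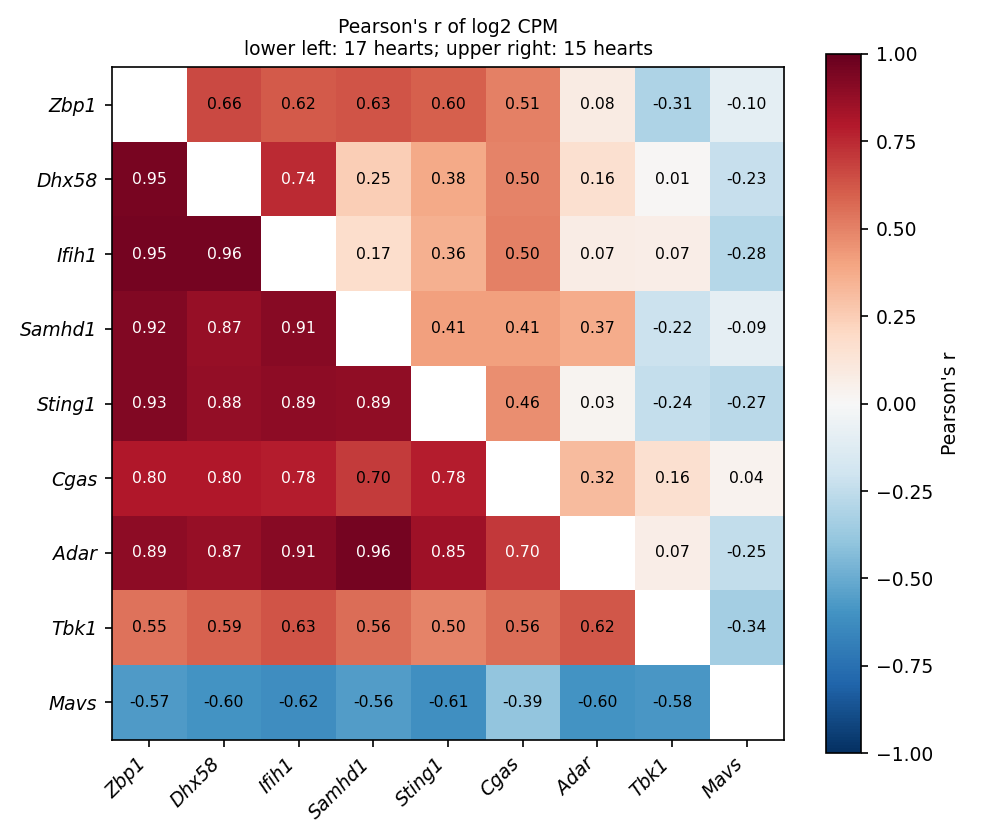
Pearson's r of log2 CPM between each pair of tested sensor genes, over all 17 hearts in the lower left and over the 15 hearts without hMut replicates 6 and 9 in the upper right. Colour and printed number give r. The lower left has a block of values from 0.50 to 0.96 and a row of negative values for *Mavs*, and the upper right has a median of 0.34 for the pairs without *Mavs*.

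Over the 17 hearts each sensor gene was also compared with all tested genes by Pearson's r of log2 CPM, and the closest are named. *Dhx58* was closest to *Oas1a* (r = 0.98), *Rtp4* and *Col6a1*, and *Ifih1* to *Usp18* (0.97), *Rtp4* and *Oasl2*. *Zbp1* was close to *B2m* (0.97) and *Zmynd15* (0.97), and *Sting1* to *Apol9b* (0.97), *Ccl7* and *Pik3ap1*. *Samhd1* was closest to *Tap1* (0.99), *Gbp4* and *Gbp2*, and *Adar* to *H2-T22* (0.97), *Trim12c* and *H2-T23*. *Cgas* was closest to *Ifi213* (0.89), *Morc3* and *Prr11*. *Mavs* and *Tbk1* had other neighbours, *Jmy* (0.94), *Rab21* and *Oxnad1* for *Mavs*, and *Naalad2* (0.88), *Cep192* and *Gng8* for *Tbk1*.

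Some of these neighbours were the same without replicates 6 and 9. Over the 15 other hearts *Oas1a* was still the closest gene to *Dhx58* (0.89) and *Apol9b* to *Sting1* (0.87), and *Jmy* and *Rab21* were still among the closest 3 to *Mavs* (0.93 and 0.90). For *Zbp1*, *Ifih1*, *Cgas*, *Tbk1*, *Samhd1* and *Adar* the closest 3 were other genes. These correlations are descriptions over few hearts.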

How the data were processed

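The deposited counts are whole numbers of reads per gene, which the authors made from polyadenylated RNA by read filtering with fastp, alignment with HISAT2 (2.2.1) to GRCm39 and counting with featureCounts (2.0.6), per the submitters' processing notes and the methods. The annotation release and the strand setting are not given in the sources used here. The table holds 17 libraries and 0 columns of other samples. Its gene length column, also made by the authors, served for FPKM.

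Genes kept by filterByExpr were tested for hMut against Ctrl with the edgeR quasi-likelihood test (version 4.0.16, R 4.3.3) after TMM scaling, with Benjamini-Hochberg adjustment over all tested genes and a threshold of 0.05. CPM used TMM-scaled library sizes, and log2 CPM a prior count of 2. Standard errors were derived from each log2 fold change and its F statistic. This procedure was tested on simulated data. Counts of 0 allow up to 3 counts, and such limits cover counting error only.

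The members, the lists and the alternatives were chosen with earlier results of these data known. All members were named, with *Polg* and marker genes, the genes past the threshold in each list or else the 2 with the smallest p, and the 3 closest genes to each member. *Aim2*, *Atrip*, Dhx58os and Chrnb2 fall outside this rule and were named after their values or positions were seen, as were the list genes that other tools called. Some genes that the rule would name are not reported here.

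Alternatives were DESeq2 (1.42.0), limma-voom with quality weights (limma 3.58.1), RLE and upper-quartile scaling, scaling without mtDNA-encoded genes, no filter, a filter of 10 counts in 8 libraries, sex read from *Xist* and Y-linked counts as a covariate, the library number as a block, each library left out in turn, and hMut replicates 6 and 9 both left out. For the levels, raw library totals were tried, and for the correlations Spearman's rho. Promoter windows came from RefSeq (GRCm38.p6) and exon overlaps from GENCODE vM39 on GRCm39. A comparison of the MDA5 and LGP2 protein sequences was planned and not made, since no protein table was used here. Python 3.11.15, numpy 2.4.6, pandas 2.3.3, scipy 1.17.1 and matplotlib 3.10.9 were used.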

Additional observations from a re-analysis of the deposited data

Results flagged for a closer look

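The 18 sets of values checked were 9 genes in 2 groups, with gaps taken on log2 CPM. In 7 sets a heart's gap to the next heart was larger, relative to the range, than Dixon's limit for a single stray value. Chance flags about 1 in 20 such sets when they are independent. The genes here share libraries and are correlated between hearts, so the 7 flags are not 7 separate events. Of the 7, 5 were in hMut replicate 6. In hMut replicate 6 these were *Ifih1* at 46.1 CPM, *Dhx58* at 10.9 CPM, *Sting1* at 18.9 CPM, *Samhd1* at 135 CPM and *Adar* at 38.0 CPM, each the highest of the 9 hMut hearts. *Zbp1*, at 31.7 CPM in the same heart, was not among them on this log scale, with replicate 9 next at 6.49 CPM. That does not mean that its value in replicate 6 was close to the others, since it was 17.9-fold of the Ctrl mean. In Ctrl the 2 sets were *Dhx58*, at 1.56 CPM in replicate 8, the lowest of the 8, and *Mavs*, at 103 CPM in replicate 4, the highest of the 8.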

How the results depend on the processing

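No sensor gene passed the threshold under any of the 27 alternatives, and the lowest adjusted p of the 243 values was 0.0806, for *Zbp1* without hMut replicate 2. Of these values 234 kept the sign and 9 changed it, all for genes that did not pass. The 9 were *Samhd1* and *Adar* with limma-voom (-0.059 and -0.019), both without hMut replicate 6 (-0.076 and -0.0084), and *Zbp1* (-0.10), *Ifih1* (-0.010), *Dhx58* (-0.029), *Samhd1* (-0.11) and *Adar* (-0.033) without hMut replicates 6 and 9. When 1 library was left out *Samhd1* ran from -0.076 to 0.32 and *Adar* from -0.0084 to 0.16. *Zbp1* kept its sign with limma-voom at 0.043. The count of genes called among all genes (749) was 463 with no filter, 2081 with limma-voom, 1517 with DESeq2 and 431 without hMut replicates 6 and 9, and between 395 and 1792 when 1 library was left out. It was lowest without hMut replicate 5, highest without hMut replicate 2 and 1182 without hMut replicate 1, and it was 400 without hMut 7, 415 without hMut 9, 497 without hMut 6 and 428, 432, 437, 443, 486 and 486 without Ctrl 8, 6, 7, 5, 1 and 2. The count over the pathway lists (1, *Traf2*) was 0 with upper-quartile scaling, with no filter and with sex as a covariate, 10 with limma-voom and 8 with DESeq2. It was 1 without hMut replicates 6 and 9, but the gene was then *Aim2*. It ran from 0 to 10 when 1 library was left out, with 0 without each of Ctrl 3, 5, 6, 7 and 8 and hMut 3, 4, 5, 6, 7 and 9, 3 without Ctrl 4, 6 without hMut 1 and 10 without hMut 2. The cause of these moves was not tested. With the library number as a replicate block, 195 of all genes, 0 pathway genes and 0 sensor genes were called, and *Zbp1* had a log2 fold change of 0.30. No Ctrl heart has the number of hMut replicate 9, so that heart does not bear on the group difference in this fit. The labels do not say whether same-numbered hearts are paired. The deviations of same-numbered hearts correlated at -0.23 to 0.34, over 0.1 in 1 of 8 pairs, which cannot settle it. With raw library totals *Adar* was at 2.33 FPKM in Ctrl rather than 2.48. The median correlation of 28 pairs (0.86) was 0.54 with Spearman's rho and 0.34 over 15 hearts. Depth limits *Zbp1* and *Cgas*, with 40 and 41 counts in their lowest libraries.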
